A study of Mus musculus with 24 samples.

Results

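The genes of major histocompatibility complex (MHC) class I antigen presentation described here are 10 of the 12091 genes in the deposited table. They were chosen by name, as genes of this pathway that the table holds, after H2-K1 had been seen at a level near 0 in E0771-LG control cells. The level of H2-K1 in E0771-LG cells is therefore given as a description, with no test. All 10 passed the filter on low values in 4T1, MMTV-PyMT and E0771 samples.

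RNA was sequenced from 24 samples in 4 experiments, each with 3 control and 3 pleiotrophin (PTN) inhibited samples. The tumor experiments were 4T1 tumors of BALB/c mice and MMTV-PyMT tumors of FVB/N mice, in which the mammary tumor virus promoter drives the polyoma middle T antigen. The mice received the mouse IgG control antibody C44 or the anti-PTN antibody 3B10, at 15 mg/kg. MMTV-PyMT mice were 8 wk of age when treatment started, and 4T1 mice were that age when the cells were injected and were treated once tumors could be felt. The cell experiments were cultured E0771 cells, from a C57BL/6 mammary carcinoma, and E0771-LG cells, a line derived from a lung metastasis of E0771. Both lines carried either 1 shRNA construct against Ptn (shPTN) or the pLKO.1 vector with a sequence against EGFP (shCtrl), and all of these cells had been selected with puromycin. With a single construct, effects of the shRNA other than loss of Ptn cannot be told apart from loss of Ptn. Whether the 3 samples of a cell group came from separate transductions is not stated. If they did not, differences between the selected populations cannot be told apart from loss of Ptn either.

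For MMTV-PyMT tumors and the cultured cells, 18 samples, values are log2 counts per M reads on genes (log2 CPM), at a depth that ran from 15.63 to 21.12 M such reads. The 4T1 values appear to be normalized for gene length, by a step that is not named, and are called length-normalized below. Their depth is unknown, so they are compared only with each other. Tests were made in limma, with p adjusted by the Benjamini-Hochberg method for the number of genes tested. A gene was called at an adjusted p under 0.05. The p-values set a change against the spread between the samples of a group, and cover no other source of difference. The reference genome is from a C57BL/6 mouse, and the strains of the tumor models carry other H2 haplotypes, whose effect on the H2 counts was not tested.

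Class I molecules show peptides from inside the cell to CD8 T cells, and their absence can release natural killer cells from inhibition. H2-K1 and H2-D1 encode the heavy chains that hold the peptide, and B2m encodes the light chain that both need to reach the surface. Proteasomes with the inducible subunits Psmb8 and Psmb9 cut proteins, the Tap1 and Tap2 transporter moves the peptides into the endoplasmic reticulum, Erap1 trims them there, Tapbp (tapasin) bridges transporter and heavy chain, and Nlrc5 is a transcriptional activator of class I genes.

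Of the 10 genes, 7 lie on chromosome 17 in or beside the mouse H2 region, so their positions are not independent of their function. H2-K1 lies at chr17:33996017-34000347 and H2-D1 at chr17:35262730-35267499 of GRCm38. B2m is on chromosome 2, Nlrc5 on chromosome 8 and Erap1 on chromosome 13. Tap1 and Psmb9 overlap head to head and the strandedness of the counting is not stated, so reads in their overlap cannot be told apart. Zbtb22 lies within Tapbp on the same strand, so reads there cannot be told apart either, and the Tapbp values below are uncertain to that extent. In their longest annotated transcripts, 4.64% of the 100-base windows of H2-D1 and 0.107% of those of Tapbp occurred also in another gene, and the share was 0 for the other 8 genes, H2-K1 included. Reads of H2-D1 and its near copies are to that extent uncertain.

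Promoters in RefSeq on GRCm38.p6, from 250 bases before to 50 after the start, were held for 8 of the 10 genes, with 2 entries for H2-K1, and none were held for Tap2 and Nlrc5. Those of the paired heavy chains, of the light chain and of Erap1 are printed here. Capitals mark matches on either strand to the NF-kB consensus, to GAAANNGAA or GAANNGAAA (both forms of the interferon-stimulated response element), to CCAAT and to TGACG, and neighbouring matches can overlap. The H2-K1 promoter is at chr17:34000284-34000583 on the minus strand. That of H2-D1 is at chr17:35262844-35263143 on the plus strand. Those of B2m and Erap1 are at chr2:122147437-122147736 and chr13:74639603-74639902, both on the plus strand.
H2-K1: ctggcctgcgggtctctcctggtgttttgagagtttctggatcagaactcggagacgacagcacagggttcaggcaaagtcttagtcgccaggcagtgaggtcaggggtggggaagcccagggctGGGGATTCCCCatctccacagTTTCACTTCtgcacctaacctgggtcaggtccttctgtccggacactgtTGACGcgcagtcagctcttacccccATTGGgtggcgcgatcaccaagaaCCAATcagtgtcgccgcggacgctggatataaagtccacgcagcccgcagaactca
H2-D1: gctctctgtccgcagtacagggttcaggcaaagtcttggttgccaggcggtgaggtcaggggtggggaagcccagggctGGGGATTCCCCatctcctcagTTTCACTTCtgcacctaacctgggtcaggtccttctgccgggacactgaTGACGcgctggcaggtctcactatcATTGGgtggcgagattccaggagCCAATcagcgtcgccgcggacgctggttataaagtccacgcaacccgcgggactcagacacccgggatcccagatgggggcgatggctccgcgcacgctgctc
B2m: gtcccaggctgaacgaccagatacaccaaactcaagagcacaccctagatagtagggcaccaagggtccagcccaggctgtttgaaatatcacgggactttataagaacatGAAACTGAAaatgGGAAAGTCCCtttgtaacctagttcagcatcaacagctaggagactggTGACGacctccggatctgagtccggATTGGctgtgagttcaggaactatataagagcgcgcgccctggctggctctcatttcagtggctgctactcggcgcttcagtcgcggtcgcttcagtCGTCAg
Erap1: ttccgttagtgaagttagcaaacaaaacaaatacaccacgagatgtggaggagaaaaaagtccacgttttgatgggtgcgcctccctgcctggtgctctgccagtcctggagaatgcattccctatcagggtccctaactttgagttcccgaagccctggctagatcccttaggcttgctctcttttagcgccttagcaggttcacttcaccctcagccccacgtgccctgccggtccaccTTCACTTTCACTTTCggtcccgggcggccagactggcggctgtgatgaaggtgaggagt

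The H2-K1 and H2-D1 promoters shared a run of 47 bases that holds the NF-kB match, and they had the same number of matches to each of the searched motifs. Over the 8 genes, the NF-kB consensus was found for 3 (H2-K1, H2-D1 and B2m), against 11.2% of the 32851 mouse promoters of the same length. Either form of the interferon element was found for 4, against 14.8% of all promoters. CCAAT was found for 6, against 37.4%, and TGACG for 5, against 20.8%. The Tap1 and Psmb9 windows cover mostly the same bases on opposite strands, so their CCAAT and TGACG matches are counted for both genes. Those of H2-K1 and H2-D1 are much alike. The 8 promoters are therefore not independent, and these counts cannot be compared with the shares of all promoters. The Erap1 promoter held overlapping matches to GAAANNGAA close to the start and none to the other motifs. A match describes letters in these windows and nothing about binding.

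The shRNA target was lower in every knockdown sample than in every control sample of its line. In E0771 cells Ptn was at 2.90, 2.18 and 2.28 log2 CPM with shCtrl and at −0.63, 0.25 and 0.53 with shPTN, a change of −2.40 (SE 0.37, adjusted p = 0.00159). In E0771-LG cells it was at 3.65, 4.51 and 3.74 with shCtrl and at 1.42, 0.98 and 1.38 with shPTN, a change of −2.71 (SE 0.28, adjusted p = 6.3e-05). The difference between these changes was −0.30 and did not pass the test (adjusted p = 0.651).

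Several libraries lay at 1 end of their group for most of the class I genes. Lowest of their group for 9 of the 10 were E0771 shCtrl replicate 1, E0771 shPTN replicate 2, MMTV-PyMT C44 tumor 2, MMTV-PyMT 3B10 tumor 1 and 4T1 3B10 tumor 3. E0771-LG shCtrl replicate 2 had the highest value of its group for 9 of the 10 genes, and it was also high for Stat2, at 5 against 2.68 and 3.49 log2 CPM in the other replicates. MMTV-PyMT 3B10 tumor 3 had the highest value of its group for all 10 genes. The same tumor was low for the nonclassical class I gene H2-T23, at 4.88 against 7.86 and 8.09 log2 CPM in the other 3B10 tumors. It was also low for the class II gene H2-Eb1, at 1.00 against 5.79 and 5.41. Values without a library are given for a part of the calls and counts that leaving it out changed.

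Markers of other cells were mixed in the cultured lines. Ptprc, which marks leukocytes, had 0 to 13 reads per cell sample, and C1qa was at 0 in every one. Laptm5, listed as a leukocyte marker too, had 1521, 1618 and 1574 reads in E0771-LG shCtrl samples, and Pdgfra, listed for fibroblasts, had 1048, 1919 and 1394. Of the epithelial markers, Krt8 was at 6.47 to 9.07 log2 CPM, but Cdh1 had 0 to 7 reads in every cell sample and Krt18 had 0 to 3 reads in every E0771 sample. The lines therefore held few reads of E-cadherin at this depth.

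**Figure D1:**
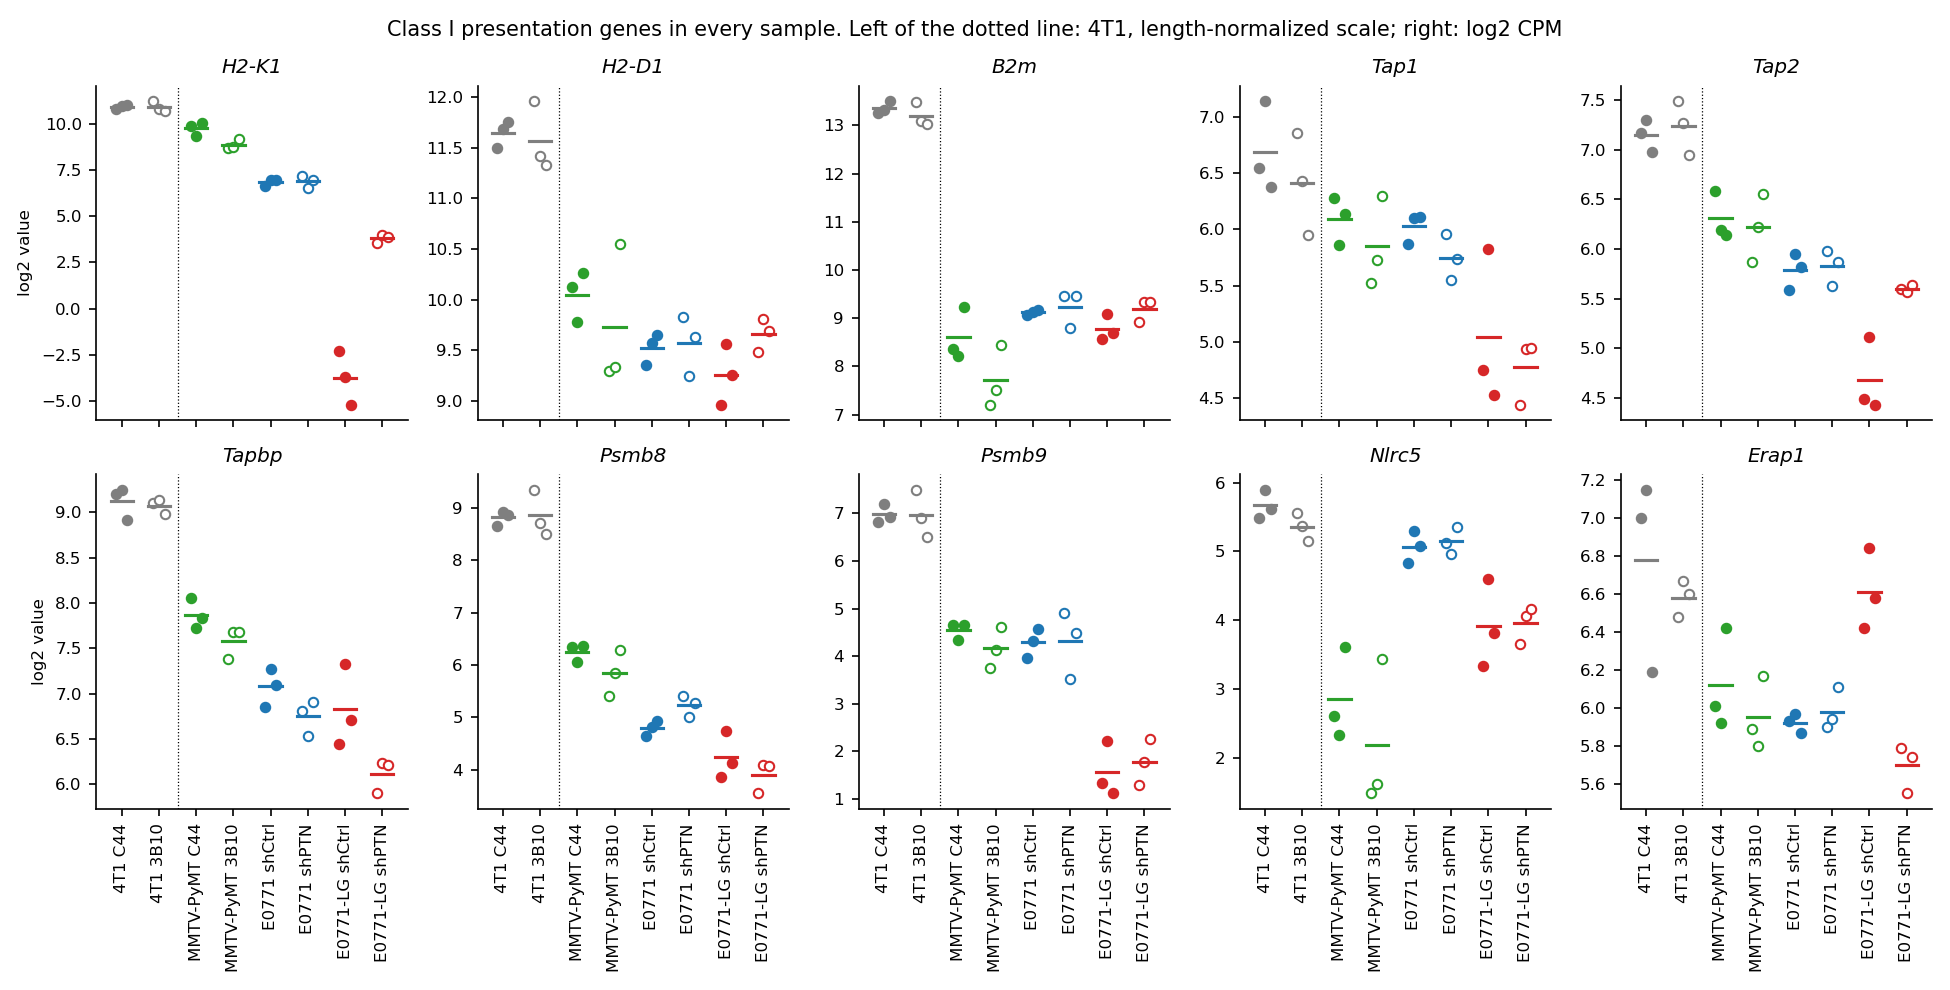
Log2 value of each of the 10 genes in every sample (points) with the group mean (bars), 3 samples a group, filled for controls and open for PTN inhibition; 4T1 values are on another scale. H2-K1 sits at −2.30 to −5.22 log2 CPM in E0771-LG shCtrl cells and at 3.57 to 4.01 with shPTN.

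The first question was how E0771-LG control cells, the metastatic derivative, differed from E0771 control cells, and it was answered by description only. H2-K1 had 1728, 2574 and 2083 reads in the E0771 shCtrl samples (6.65, 6.98 and 6.97 log2 CPM). In the E0771-LG shCtrl samples it had 3, 1 and 0 reads. Over each group this was 6385 against 4 reads, a ratio of 1630 (exact 95% counting interval 637 to 5990), where the interval covers counting error only. The reads of H2-D1 in the same E0771-LG samples were 8629, 14768 and 11423, so the loss of reads was not shared by the other heavy chain.

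Of the 7620 genes at 4 log2 CPM or more in every E0771 sample, H2-K1 was the single one with at most 3 reads in every E0771-LG shCtrl sample. This rule was set after the values of H2-K1 had been seen, with a limit equal to its own highest count, so it describes H2-K1 and is no evidence that the gene is special. With limits of 10, 20 and 50 reads the number of genes was 1, 2 and 6. With the level lowered to 3 log2 CPM, 8893 genes qualified and H2-K1 remained the single one. With the level at 2 log2 CPM, 9594 genes qualified and 4 were near 0 in E0771-LG control cells, namely Lmbr1, Sox7, Hcfc1r1 and H2-K1. Of these 4, only H2-K1 had over 3 reads in every E0771-LG shPTN sample.

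The table held 13 other genes with a start within 100 kb of that of H2-K1. Their mean levels in E0771-LG minus E0771 control cells ran from −1.58 for H2-K2, a class I gene next to H2-K1, to 0.47 for Wdr46. H2-K2 was at a mean of 1.49 log2 CPM in E0771 and −0.09 in E0771-LG control cells. On the other side, Ring1, a Polycomb component, was at 4.84 and 4.35.

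**Figure D2:**
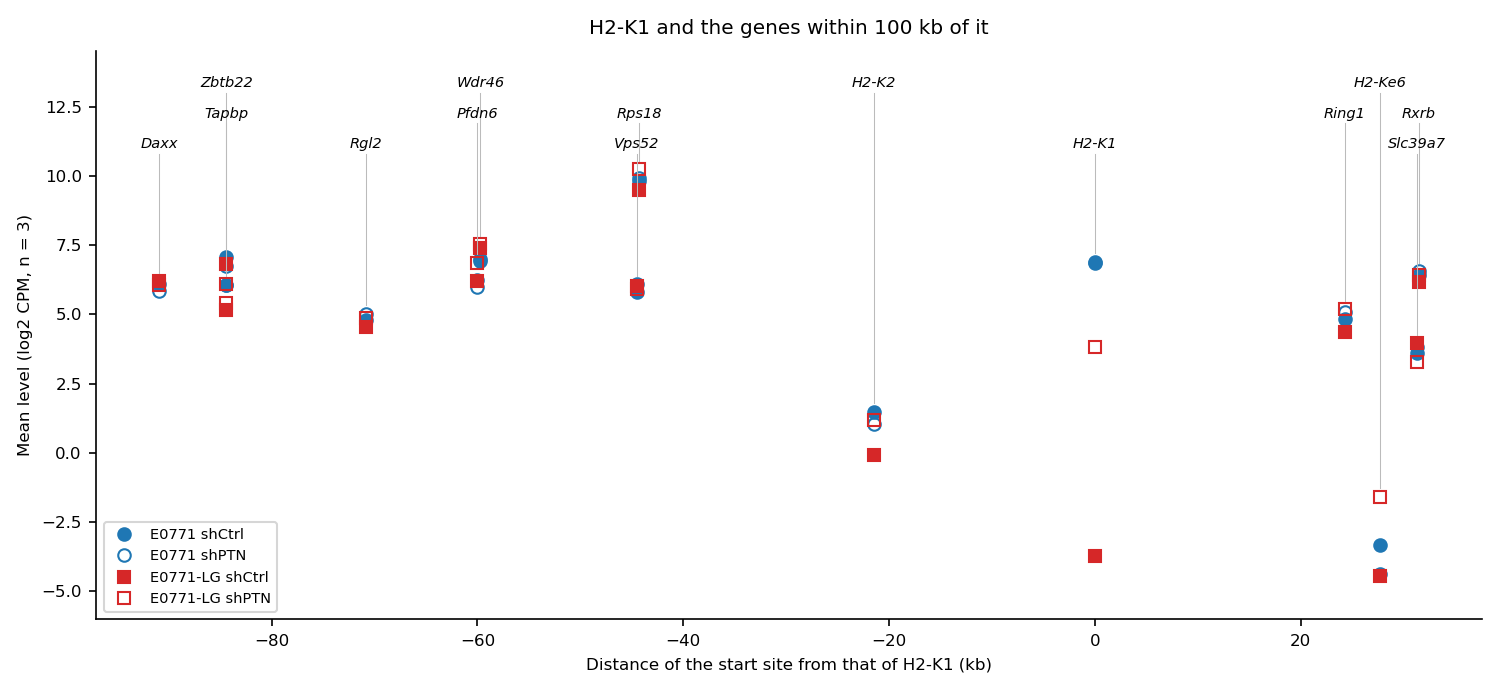
Mean log2 CPM (n = 3) in the 4 groups of cell samples for H2-K1 and the 13 genes of the table within 100 kb, by distance of the start site in kb. H2-K1 is the gene with the widest gap between E0771 (6.87) and E0771-LG (−3.74) control cells.

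The other members were closer between the control lines, and Psmb9 differed most among them. The median over all genes of the difference between E0771-LG and E0771 control cells was −0.15 (log2), and it was 0.01 under median-of-ratios scaling, so differences are given relative to it. Psmb9, an inducible catalytic subunit of the immunoproteasome, was at 3.97, 4.31 and 4.58 log2 CPM in E0771 and at 1.33, 2.22 and 1.12 in E0771-LG control cells. Every E0771-LG sample was lower, with a relative difference of −2.58. Nlrc5, the transcriptional activator, was at 4.83, 5.30 and 5.08 in E0771 and at 3.33, 4.6 and 3.81 in E0771-LG, a relative difference of −1. The transporter genes were lower as well, Tap2 by a relative difference of −0.96. For Tap1 this difference was −0.84, and E0771-LG replicate 2 (5.83) came close to the lowest E0771 sample (5.87).

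In all, 5 of the 10 genes (H2-K1, Tap1, Tap2, Psmb9 and Nlrc5) had every E0771-LG control sample below every E0771 control sample. Of the 10600 genes compared, 39.9% did so. The level of H2-K1 led to the choice of genes, so its place in this count was fixed beforehand. Counts that hold H2-K1, here and below, therefore cannot be compared with the shares of all genes. The count of the 10 genes was 4 under median-of-ratios scaling and depended on single libraries. It was 9 without E0771-LG shCtrl replicate 2 (44.8% of all genes) and 8 without E0771 shCtrl replicate 1 (43.3%). The first of these had been seen to be high for 9 of the 10 genes, so leaving it out lowers them by choice. Psmb8, B2m, H2-D1 and Tapbp overlapped between the lines, with relative differences of −0.40, −0.19, −0.11 and −0.10. Without E0771-LG shCtrl replicate 2 none of these 4 overlapped, and the differences were −0.64, −0.33, −0.25 and −0.34. Erap1, the trimming peptidase, lay the other way, at 5.93, 5.97 and 5.87 in E0771 and at 6.42, 6.84 and 6.58 in E0771-LG cells. Its relative difference was 0.84, with every E0771-LG sample above every E0771 sample.

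Of the other genes of the pathway, chosen here after their values were seen, some differed in level between the control lines and some did not. Psme1, Tapbpl, Lnpep, Nfya and Rela, for example, overlapped between them. Of all genes compared, 39.9% had every E0771-LG control sample below every E0771 control sample. Mr1, which presents vitamin metabolites to a class of T cells, was at 3.71, 4.51 and 3.94 log2 CPM in E0771 and at −1.02, 0.13 and −0.57 in E0771-LG control cells, a relative difference of −4.39. H2-T10 had a relative difference of −2.28. Rfx5, a subunit of the factor that binds class I and class II promoters, had one of −1.17. Psmb10, the third inducible catalytic subunit, was higher in E0771-LG cells, with a relative difference of 2.27. Psmb9 and Psmb10 thus lay in opposite directions in these cells, although their products are built into the same particle.

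Per kb of exon, the members covered a wide range within a line. In E0771 control cells B2m was the highest (9.34 log2 CPM per kb), followed by H2-D1 (8.16), and then by H2-K1 (5.31) and Tapbp (5.22), which were closer than their spread. Tap2 (3.87) and Tap1 (3.57) came next. Erap1 (3.06) and Psmb8 (3.04) did not differ beyond their spread, and Psmb9 (2.42) and Nlrc5 (1.98) were lowest. In E0771-LG control cells B2m (9) and H2-D1 (7.89) kept the first places, Erap1 (3.75) stood above Tap2 (2.76) and Tap1 (2.58), and H2-K1 was last at −5.30. The heavy chain message of E0771-LG control cells was thus nearly all H2-D1 among these 2 genes.

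**Figure D3:**
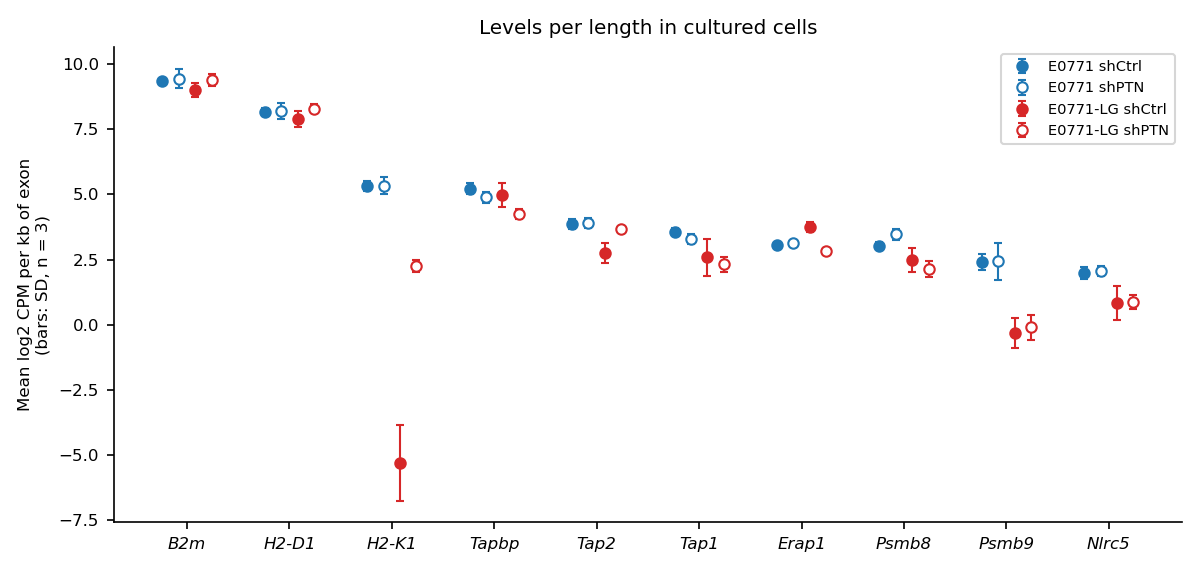
Mean log2 CPM per kb of exon (bars: SD, n = 3) of the 10 genes in the 4 groups of cultured cells. B2m and H2-D1 are the highest in each group, and H2-K1 moves from 5.31 in E0771 to −5.30 in E0771-LG control cells.

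The second question was what the Ptn knockdown did in E0771 cells. The heavy chains and the light chain showed no change past the threshold. H2-K1 was at 7.17, 6.55 and 6.98 log2 CPM with shPTN, around the control values given above, a change of 0.03 (SE 0.15, adjusted p = 0.903). For H2-D1 the change was 0.05 (95% interval −0.26 to 0.36) and for B2m it was 0.11 (−0.24 to 0.47). The knockdown replicate 2 held the lowest value of its group for 9 of the 10 genes, and without it the change of B2m was 0.33 and past the threshold (adjusted p = 0.0108, with a range of 0.0108 to 1 over its 15 alternatives).

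Psmb8 was the 1 gene called of the 10, against 20.6% of the 10394 genes tested, 11.7% lower and 8.89% higher with shPTN. This inducible catalytic subunit was at 4.64, 4.81 and 4.93 log2 CPM with shCtrl and at 5.41, 5.01 and 5.28 with shPTN, so every knockdown sample was higher. The change was 0.44 (SE 0.13, adjusted p = 0.0409). It was past the threshold in 7 of 15 alternatives, with adjusted p between 0.0111 and 0.287. The call was lost without shPTN replicate 1 (change 0.35) or 3 (0.41), and without shCtrl replicate 1 (0.36), 2 (0.45) or 3 (0.51).

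The other genes of peptide supply were not called in E0771 cells. Tap1 was at 5.87, 6.10 and 6.11 with shCtrl and at 5.96, 5.55 and 5.74 with shPTN, a change of −0.28 (adjusted p = 0.134). It passed the threshold only without shPTN replicate 1 (−0.38). Tapbp, which bridges transporter and heavy chain, had a change of −0.33 (adjusted p = 0.093), and passed only without shCtrl replicate 1 (−0.44). The changes of Tap2, Psmb9, Nlrc5 and Erap1 lay between 0.02 and 0.08. The median change of the 10 genes was 0.04, and that of all genes tested was −0.03.

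The third question was what the same knockdown did in E0771-LG cells. H2-K1, described with no test, had 3, 1 and 0 reads with shCtrl and 250, 291 and 254 reads with shPTN (3.57, 4.01 and 3.87 log2 CPM). This was 795 reads in 56.6 M against 4 in 55.48 M, a ratio of 195 (exact 95% counting interval 75.8 to 717). The level with shPTN was still below that of E0771 shPTN cells, at 11.5% of it by pooled reads, a ratio of 8.66 between the lines (8.04 to 9.33). All 3 knockdown samples were thus similar to each other, far above their controls and below each E0771 sample. H2-K1 passed the filter on low values through the knockdown group alone, and the tests below cover the other 9 genes.

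Of these 9 genes 5 were called, 3 higher and 2 lower with shPTN, against 46.4% of the 10405 genes tested (22.1% lower and 24.3% higher). That share is close to 5 of 9, so the count is not a result about class I genes. Their median change was 0.04, and that of all genes tested was 0.05. With the knockdown replicates 2 or 3 left out, or shCtrl replicate 3, 2 genes were called, and without shCtrl replicate 1 it was 3.

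The partners of H2-K1 at the surface moved little. H2-D1, the other heavy chain, was at 8.96, 9.56 and 9.26 log2 CPM with shCtrl and at 9.48, 9.81 and 9.69 with shPTN. The groups overlapped, and the change was 0.40 (SE 0.15, adjusted p = 0.049). B2m was at 8.56, 9.08 and 8.70 with shCtrl and at 8.93, 9.33 and 9.33 with shPTN, a change of 0.42 (SE 0.15, adjusted p = 0.0474), again with groups that overlapped. Both calls lay just inside the threshold, and without shCtrl replicate 2 the changes were 0.55 for H2-D1 and 0.57 for B2m. H2-D1 passed it in 5 of 15 alternatives (adjusted p 0.00271 to 0.214) and B2m in 6 of 15 (0.00299 to 0.224). Both were lost without shPTN replicate 2, at changes of 0.32 for H2-D1 and 0.35 for B2m. Both were lost likewise without shPTN replicate 3 (0.38 and 0.35), shCtrl replicate 1 (0.25 and 0.31) and shCtrl replicate 3 (0.40 and 0.37).

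Of the transporter subunits, Tap2 was called in E0771-LG cells and Tap1 was not. Tap2 was at 4.49, 5.11 and 4.43 with shCtrl and at 5.60, 5.57 and 5.64 with shPTN. Every knockdown sample was higher, and the change was 0.93 (SE 0.17, adjusted p = 0.00148), to 190% of the control level. It passed the threshold in all 15 alternatives, with adjusted p between 3.32e-05 and 0.0107. Tap1, whose product forms the other side of the transporter, was at 4.75, 5.83 and 4.53 with shCtrl and at 4.44, 4.94 and 4.95 with shPTN. These groups overlapped, with a change of −0.26 (95% interval −1.10 to 0.58), and without shCtrl replicate 2 the change was 0.14. Whether Tap1 and Tap2 differed from each other was not tested.

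Tapbp and Erap1 fell. Tapbp was at 6.44, 7.33 and 6.71 with shCtrl and at 5.90, 6.23 and 6.21 with shPTN, a change of −0.71 (SE 0.22, adjusted p = 0.0286). Every knockdown sample was lower, and the call was held in 11 of 15 alternatives (adjusted p 0.00126 to 0.0926). It was lost without shPTN replicate 1 (−0.61), 2 (−0.77) or 3 (−0.76) and without shCtrl replicate 3 (−0.77). Without shCtrl replicate 2, which stood apart, the gene kept its call at a change of −0.46. Erap1, which was higher in E0771-LG than in E0771 controls, was at 5.79, 5.55 and 5.74 with shPTN against 6.42, 6.84 and 6.58 with shCtrl. Its change was −0.92 (SE 0.13, adjusted p = 0.000279), to 52.9% of control, and it passed in all 15 alternatives (5.17e-05 to 0.00398).

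The inducible proteasome subunits and Nlrc5 were not called. Psmb8 was at 3.86, 4.75 and 4.13 with shCtrl and at 3.55, 4.09 and 4.08 with shPTN, a change of −0.34 (adjusted p = 0.262), or −0.09 without shCtrl replicate 2. Psmb9 stayed at 1.29, 1.77 and 2.26 log2 CPM with shPTN, with a change of 0.21 (95% interval −0.61 to 1.04), and so did not return to its E0771 level. Nlrc5 was at 3.66, 4.06 and 4.16 with shPTN, a change of 0.04 (−0.63 to 0.72). Whether Nlrc5 had a part in the H2-K1 values was not tested. Without shCtrl replicate 2 the change was 0.54 for Psmb9 and 0.39 for Nlrc5, and neither passed the threshold.

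The test of the difference between the lines, over the 12 cell samples, called 2 of the 9 genes, against 34% of the 10600 genes tested. The knockdown change of Tap2 was higher in E0771-LG than in E0771 cells by 0.89 (SE 0.23, adjusted p = 0.00836). That of Erap1 was lower by 0.98, as a difference of −0.98 (SE 0.16, adjusted p = 0.000537). Both passed in all 21 alternatives, with adjusted p up to 0.0246 and 0.0109. Psmb8, higher with knockdown in E0771 and not called in E0771-LG cells, had a difference of −0.78 (adjusted p = 0.0539). It passed in 7 of 21 alternatives (0.00881 to 0.121), among them the fits without E0771 shPTN replicate 2 (−0.90) and without E0771-LG shCtrl replicate 1 (−0.97). The differences of H2-D1 (0.35), B2m (0.30) and Tapbp (−0.39) did not pass, so their calls in E0771-LG cells were not shown to be particular to that line.

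**Figure D4:**
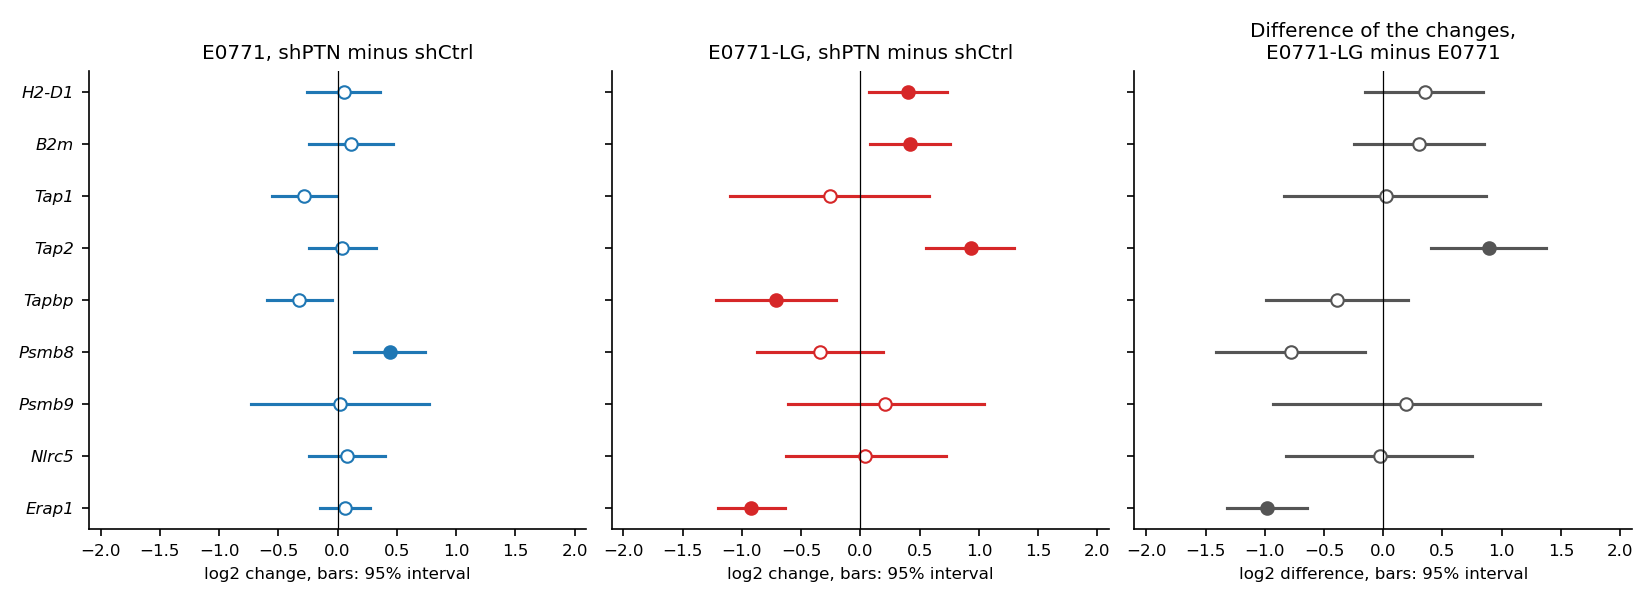
Log2 change with shPTN in E0771 and E0771-LG cells and the difference of these changes, with 95% intervals (n = 3 a group), for the 9 genes other than H2-K1; filled points have an adjusted p under 0.05. Tap2 (0.89) and Erap1 (−0.98) are filled in the panel of differences.

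Of the 12 tested neighbours of H2-K1, chosen by position, 5 were called in E0771-LG cells, 3 higher and 2 lower with shPTN. That is near the 46.4% of all genes tested, so the count says nothing particular about this neighbourhood. Rps18, a ribosomal protein gene, had a change of 0.76 (adjusted p = 9.51e-05), Pfdn6 one of 0.68 (0.00081) and Ring1 one of 0.85 (0.00154). The 2 called lower were Slc39a7, with a change of −0.68 (0.0251), and Tapbp, with one of −0.71 (0.0286). Tapbp was also counted among the class I genes above. H2-K2 had a change of 1.27 that did not pass (0.101). The count was 3, with 0 lower, without shPTN replicate 2, shPTN replicate 3 or shCtrl replicate 3.

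Among the other class I molecules, H2-Q4 had at most 1 read in each E0771-LG control sample and is described with no test. This nonclassical gene had 0, 1 and 1 reads with shCtrl and 50, 63 and 34 with shPTN. The ratio of pooled reads was 72.1 (exact 95% counting interval 19.6 to 601). H2-Q4 differed from H2-K1 in that it was also near 0 in E0771 cells, with 0, 2 and 0 reads with shCtrl and 1, 0 and 0 with shPTN. Of the other 7 tested genes of this list 2 were called, both higher with shPTN, against 46.4% of all genes tested, with a median change of 0.17. With quantile normalization 4 were called, 2 higher and 2 lower, with a median of 0.01. Mr1 was at 2.18, 3.21 and 3.21 log2 CPM with shPTN, against −1.02, 0.13 and −0.57 with shCtrl, a change of 3.35 (SE 0.42, adjusted p = 0.000191), on 8, 21 and 12 control reads. Like H2-K1, it was low in E0771-LG control cells, higher with shPTN, and below its E0771 values of 4.07, 4.15 and 4.11 with shPTN. Cd1d1, which presents lipids, had a change of 1.48 (adjusted p = 0.000625). The difference between the lines was called for 2 of these 7, against 34% of all genes tested, with values of 3.30 for Mr1 and 1.80 for Cd1d1. With single libraries left out it was called for 2 or 3, for example 3 without E0771 shPTN replicate 1. In E0771 cells limma called 0 of 7 tested genes of this list, against 20.6%, with 1 at an unadjusted p under 0.05 and 0 with voom weights, and their median change was −0.06. That count was 1 without shPTN replicate 1 or without shCtrl replicate 1.

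Among genes of peptide loading and trimming, 8 of 12 were called in E0771-LG cells, 2 higher and 6 lower with shPTN, against 24.3% and 22.1% of all genes tested, with a median change of −0.14. Tapbpl, a tapasin-related peptide editor, rose by 1.08 (adjusted p = 0.00526), and Psme1, a subunit of the proteasome activator, rose by 0.83 (0.00622). Psmb10 fell by 0.71 (0.00164), and the aminopeptidase genes Lnpep and Npepps fell by 0.67 (0.000999) and 0.58 (0.000509), where Lnpep was not called in 1 fit of all 24 samples. In E0771 cells 3 of 12 were called, all lower, against 20.6% of all genes tested, with a median change of −0.15. Npepps fell there too, by 0.53 (adjusted p = 0.00203). That count was 1 without shPTN replicate 3, shCtrl replicate 2 or shCtrl replicate 3. The difference between the lines was called for 4 of 12, against 34% of all genes tested, and it was 1.25 for Psme1 (adjusted p = 0.00177), which was lower with knockdown in E0771 (−0.43) and higher in E0771-LG cells.

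The constitutive catalytic subunits, which Psmb8, Psmb9 and Psmb10 replace in immunoproteasomes, rose in E0771-LG cells, 3 of 3, where 46.4% of all genes were called (24.3% higher), with a median change of 0.53. Psmb5, the counterpart of Psmb8, was at 7.02, 7.09 and 7.13 log2 CPM with shCtrl and at 7.92, 8 and 7.92 with shPTN, a change of 0.87 (SE 0.09, adjusted p = 6.3e-05). The changes of Psmb7 and Psmb6 were 0.53 and 0.34, and Psmb6 lost its call without shPTN replicate 2 (0.30). In E0771 cells limma called 0 of 3, against 20.6% of all genes, with 0 at an unadjusted p under 0.05 and 0 with voom weights, and without shPTN replicate 1 it called 1. The difference between the lines was called for 3 of 3, against 34% of all genes, at 0.94 for Psmb5, 0.57 for Psmb6 and 0.63 for Psmb7. In E0771-LG cells the constitutive subunits were thus higher with knockdown while the inducible ones were not called or, for Psmb10, lower.

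Among 23 genes of transcriptional control, 7 were called in E0771-LG cells, 3 higher and 4 lower, against 46.4% of all genes, with a median change of 0. Irf9, Nfkb1 and the Polycomb gene Suz12 fell by 0.75, 0.74 and 0.71, with adjusted p of 0.0171, 0.000336 and 0.000206, and Jak1 fell by 0.53 (0.00186). The call of Irf9 was lost without shPTN replicate 1 (−0.62). The called rises were smaller, at 0.43 for Rfxap, 0.33 for Nfyb and 0.31 for Ezh2, a Polycomb gene that went the other way from Suz12. Rfxap lost its call without shPTN replicate 3 (0.38). Ezh2 lost it without shPTN replicate 1 (0.24) or 2 (0.31) and without shCtrl replicate 2 (0.29). Nfyb lost it without shPTN replicate 2 (0.26) or 3 (0.31) and without shCtrl replicate 1 (0.29), 2 (0.32) or 3 (0.36). In E0771 cells 7 of 23 were called, all lower, against 20.6% of all genes (11.7% lower), with a median change of −0.12. Irf8 fell by 2.08 (adjusted p = 0.00335), Rfxap, a partner of Rfx5, by 0.75 (0.0101) and Stat2 by 0.62 (0.0113). Rfxap lost its call without shCtrl replicate 3 (−0.66), and Stat2 lost it in 1 fit of all 24 samples. The count in E0771 was 4 without shCtrl replicate 2, 2 without shCtrl replicate 3 and 3 in the fit of all 24 samples. The difference between the lines was called for 5 of 23, against 34% of all genes, with the highest values for Irf8 (2.08) and Rfxap (1.18) and the lowest for Suz12 (−0.72) and Jak1 (−0.57).

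Marker genes of other lineages were called in both lines, in directions that varied. In E0771-LG cells the 4 epithelial markers summed to 158, 204 and 164 CPM with shCtrl and to 423, 564 and 515 with shPTN, with Krt8 the most abundant. The 4 leukocyte markers summed to 90.9, 88.2 and 88.6 with shCtrl and to 47.3, 52.8 and 55.9 with shPTN. That sum followed Laptm5 (change −0.94, adjusted p = 7.62e-05), while Coro1a had a change of 0.77 that did not pass (0.0836), so that 1 of 2 tested was called (2 without shPTN replicate 1 or shCtrl replicate 2, where the change of Coro1a was 1.11 and 0.98). The 4 fibroblast markers summed to 73, 110 and 87.4 with shCtrl and to 50.7, 51 and 57.1 with shPTN, led by Pdgfra. Col1a1 passed the filter on low values through the control group alone, so its change of −4.68 is given with no test. Of the others, Pdgfra fell by 0.68 (adjusted p = 0.00649) and Dcn rose by 1.64 (0.0486), while Col1a2 (1.29) did not pass (0.0587). Fibroblast markers called higher were 0 without shPTN replicate 2 or shCtrl replicate 3, and 2 without shCtrl replicate 2. Of all genes tested in E0771-LG cells, 46.4% were called, 22.1% lower and 24.3% higher. Of single markers of other lists, Cd68 (macrophages) rose by 2.17 (0.00207) and Fabp4 (adipocytes) fell by 2.46 (0.0017). Acta1 (muscle) fell by 1.20 (0.0292), a call lost without shPTN replicate 1 (−0.95) or 3 (−1.30) or shCtrl replicate 1 (−0.93). In E0771 cells the leukocyte and fibroblast sums were higher with shPTN. The leukocyte markers summed to 15.4, 21.3 and 19.4 with shCtrl and to 47, 32.1 and 37.6 with shPTN, with 2 of 2 tested called higher (1 without shPTN replicate 3 or shCtrl replicate 1). The fibroblast markers summed to 50.1, 70.9 and 56.5 with shCtrl and to 132, 144 and 154 with shPTN, with 3 of 3 tested called higher. That count was 2 without shPTN replicate 3 and in 1 fit of all 24 samples. Of all genes tested in E0771 cells, 20.6% were called, 8.89% of them all as higher. The part of these genes in the class I results was not tested.

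Over the 12 cell samples, the genes whose log2 values were most like the mean of the 10 members (Pearson r among 10019 genes, as a description) were Slc9a3r1 (0.964), Vsir (0.961), Etv1 (0.959), Acbd4 (0.957) and Apol9a (0.953). The genes most like H2-K1 were Pmm1 (0.989), Mipep (0.983), Mttp (0.983), Trim45 (0.975) and Osgep (0.974). These samples fall into 4 groups of 3, so each r rests mainly on the group means. Mttp, for example, was at means of 4.53 and 4.6 log2 CPM in E0771 and of 2.29 and 3.8 in E0771-LG cells with shCtrl and shPTN.

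The fourth question was whether the antibody 3B10 moved these genes in MMTV-PyMT tumors, which hold tumor, stromal and immune cells. In such bulk samples, fewer cells of a type and less RNA per cell cannot be told apart. The mean of every one of the 10 genes was lower with 3B10, as was that of 4430 of all 11361 genes tested. Class I genes of a tumor can move as 1 block, so these are not 10 independent observations. The changes of the 10 genes ran from −0.88 to −0.09, with a median of −0.35 against 0.05 for all genes tested. None passed the test, and neither did any other gene: limma called 0 of the 10 and 0.0% of the 11361 genes tested, with 1 of the 10 and 307 of all genes at an unadjusted p under 0.05, and 0 of the 10 with voom weights.

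H2-K1 and B2m had the lowest means with 3B10 relative to C44. H2-K1 was at 9.88, 9.35 and 10.06 log2 CPM with C44 and at 8.72, 8.75 and 9.17 with 3B10, so every 3B10 tumor was lower. The change was −0.88 (SE 0.23, adjusted p = 1). B2m was at 8.35, 8.22 and 9.23 with C44 and at 7.20, 7.52 and 8.44 with 3B10, a change of −0.88 (SE 0.38, adjusted p = 1) with overlapping groups. H2-D1 was at 10.12, 9.78 and 10.26 with C44 and at 9.30, 9.33 and 10.55 with 3B10. Here tumor 3 of the 3B10 group was the highest of all 6 tumors, and the change was −0.32 (SE 0.35). Nlrc5 was at 2.61, 2.33 and 3.61 with C44 and at 1.48, 1.62 and 3.44 with 3B10, a change of −0.67 (SE 0.59).

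Every 3B10 tumor was below every C44 tumor for 2 of the 10 genes (H2-K1 and Tapbp), as for 2.27% of all genes tested. Without 3B10 tumor 3, a choice made after seeing the data, this held for 9 of the 10 genes (all but Tap2), and for 5.2% of all genes tested. Tumor 3 had been seen to be the highest for all 10 genes, so leaving it out lowers these genes by choice, and the shares cannot be compared. The difference of the 2 remaining 3B10 tumors from C44 was then −1.30 for Nlrc5, −1.25 for B2m, −1.03 for H2-K1 and −0.74 for H2-D1. Limma called 0 of the 10 genes in that fit as well. Since the class I genes of a tumor can move as 1 block, these 9 genes are not 9 independent observations.

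Tumor 3 was unlike the other 3B10 tumors for further class I genes. H2-T22 was at 3.33 against 5.35 and 5.46 log2 CPM, and Mr1 at 3.75 against 4.76 and 4.73. In the other direction, H2-T10 was at 5.59 against 3.89 and 3.85, H2-Q6 at 3.46 against 2.09 and 1.69, and H2-Q7 at 3.44 against 0.95 and 1.17. With C44, H2-Q7 was at 3.76, 3.79 and 4.34, so tumor 3 was near the controls and the other 3B10 tumors were not. The list of other class I molecules had 9 of 10 tested genes with a lower mean, against 4430 of all 11361 genes tested. Its median change was −0.71, and limma called 0, with 3 at an unadjusted p under 0.05 and 0 with voom weights. No gene of the loading, constitutive and control lists was called either, with 1, 0 and 0 at an unadjusted p under 0.05, 0 with voom weights, and medians of −0.10, 0.05 and −0.02.

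**Figure D5:**
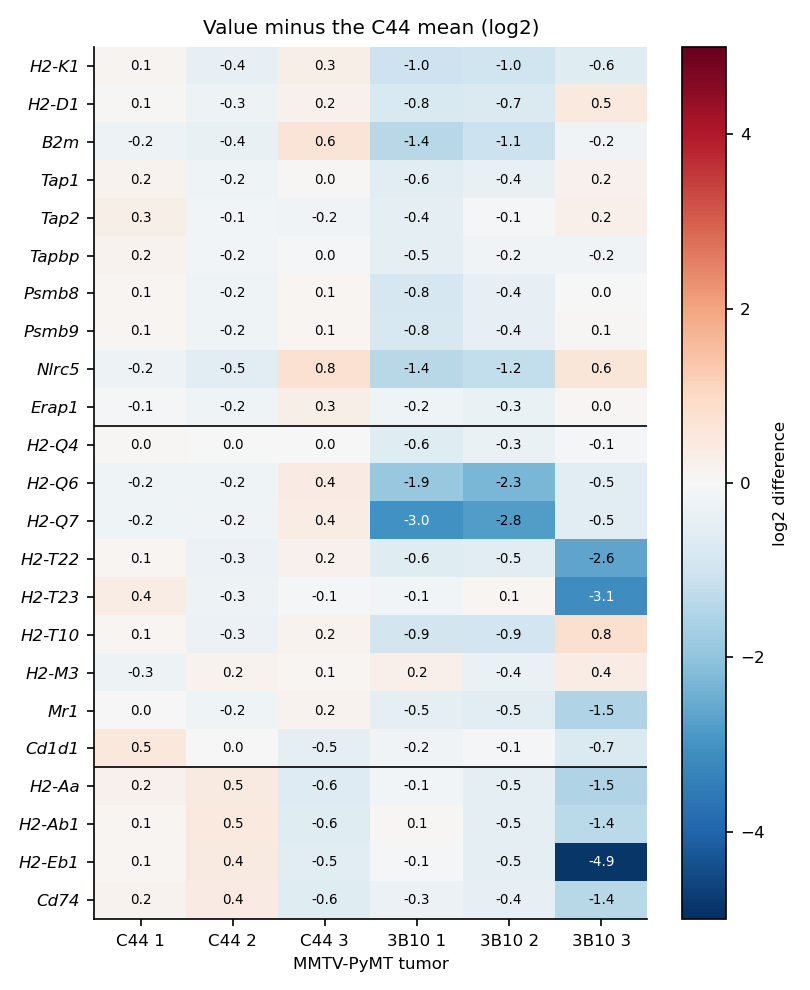
Log2 value of each MMTV-PyMT tumor minus the mean of the 3 C44 tumors, for the 10 genes (top), other class I molecules (middle) and class II genes (bottom). 3B10 tumor 3 differs in sign from 3B10 tumors 1 and 2 for several genes.

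Markers of immune cells were also read in these tumors. The class II markers (4 of 6 in the table) summed to 778, 935 and 454 CPM with C44 and to 606, 509 and 241 with 3B10, with Cd74 the most abundant. Tumor 3 was thus lowest of the 3B10 group for this sum and highest for the 10 class I genes. C44 tumor 3 was likewise lowest of its group for the class II sum and highest for 7 of the 10 genes. The macrophage markers summed to 343, 299 and 233 with C44 and to 392, 248 and 244 with 3B10. The T and NK cell markers (5 of 6 in the table) summed to 4.54, 5.51 and 5.76 with C44 and to 4.97, 2.77 and 6.58 with 3B10. The part of these cells in the class I values was not tested.

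In 4T1 tumors the same antibody left no member with groups apart. The changes ran from −0.31 for Nlrc5 to 0.09 for Tap2, with a median of −0.06 against 0.01 for all genes tested. Limma called 0 of the 10 genes and 0.0% of the 11467 tested, with 0 of the 10 and 719 of all genes at an unadjusted p under 0.05, and voom could not be run without reads. H2-K1 was at 10.79, 10.98 and 11.03 with C44 and at 11.23, 10.82 and 10.69 with 3B10 on the length-normalized log2 scale. Its change was −0.02 (95% interval −0.41 to 0.36). For B2m the change was −0.15 (−0.54 to 0.23). Within the 3B10 group, tumor 1 was the highest for 8 of the 10 genes and tumor 3 the lowest for 9.

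The other lists held no called gene in 4T1 tumors. At an unadjusted p under 0.05 there were 0 of 12 loading and trimming genes, 2 of 11 other class I genes, 0 of 3 constitutive subunits and 3 of 23 control genes. Their median changes were −0.01, −0.07, 0.19 and −0.12.

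Markers of other cells were summed in the 4T1 tumors too. None were called, and for class II, macrophage, neutrophil and endothelial markers the sums of the groups overlapped. The leukocyte markers summed to 670, 651 and 720 with C44 and to 563, 627 and 424 with 3B10, lower in every 3B10 tumor. On the length-normalized scale, the T and NK cell markers summed to 119, 138 and 124 with C44 and to 104, 66.7 and 29.4 with 3B10. The class II markers summed to 8480, 12600 and 11900 with C44 and to 9740, 7280 and 3670 with 3B10, led by Cd74. The macrophage markers (5 of 5, led by C1qa) summed to 3580, 3560 and 3970 with C44 and to 2420, 3570 and 2230 with 3B10. The epithelial markers (4 of 4, led by Krt18) summed to 3180, 3440 and 3440 with C44 and to 4730, 4360 and 5070 with 3B10. The neutrophil markers (3 of 4 in the table) summed to 1080, 1020 and 1840 with C44 and to 1130, 709 and 558 with 3B10. The endothelial markers (3 of 3) summed to 75.6, 189 and 105 with C44 and to 81.5, 145 and 64.8 with 3B10. Of the adipocyte markers 1 of 3 was in the table, Fabp4, with overlapping groups, and of the B cell markers 0 of 4. The muscle markers (2 of 3 in the table, led by Acta1) summed to 1.87, 0.185 and 0.232 with C44 and to 11.1, 77.2 and 82.8 with 3B10. The part of these cells in the class I values was not tested.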

How the data were processed

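RNA of 24 samples, in 8 groups of 3, was sequenced by the authors. The deposited table holds log2 values of 12091 genes. The submitters' notes name HISAT2, featureCounts, limma and edgeR with mm10 (GRCm38), without versions, and do not name the step that made the log2 values. In 18 samples the deposited log2 values are log2 CPM with an offset of 0.5 reads, since 100% of them give whole reads within 0.01 reads. The deposited 4T1 log2 values follow gene length instead, and their sums off the log scale are 934959 to 953104. Depth in the 18 samples was 15.63 to 21.12 M reads on genes.

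Each experiment was fitted with limma 3.58.1 in R 4.3.3 (eBayes with trend and robust), and the difference between the lines over the 12 cell samples. Genes needed a value off the log scale of at least 1 above the sample's lowest value in 3 samples. P-values were adjusted over all genes tested, with a threshold of 0.05. Levels between the lines were described without a test. Python 3.11.15, numpy 2.4.6, pandas 2.3.3, scipy 1.17.1 and matplotlib 3.10.9 were used, with GENCODE M21 for positions and exon lengths.

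The 10 genes and the lists were chosen with earlier results of these data known. Named by a rule written before the table was opened, but with those earlier results known, were the 10 genes, Ptn, at most 6 called genes per list and comparison by absolute change, and the 5 genes most like the mean of the 10 and most like H2-K1, among genes with a mean of at least 1 log2 CPM. Neighbours of H2-K1 were chosen by position. H2-Q4 was left out of the counts of its list in the cell comparisons only, and Ezh2 was named, after their values were seen. The test of Col1a1 in E0771-LG cells was likewise set aside after its values were seen. Lmbr1, Sox7 and Hcfc1r1, the genes named beside libraries that stood apart, those named for their level between the lines, and single marker genes were chosen after their values were seen. There were 11 lists of cell type markers, each summed in every sample, and the text gives these sums for some of the experiments only.

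Alternatives were no filter, a stricter filter (a mean of at least 4), a pseudocount of 1, plain eBayes, 1 fit of all 24 samples, median-of-ratios and quantile scaling, voom on recovered reads, a replicate block, and leaving out each library. Left out were a test of H2-K1 in E0771-LG cells, whose level there led to the choice of genes, and any comparison of 4T1 levels with other samples.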

Additional observations from a re-analysis of the deposited data

Results flagged for a closer look

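The effect of the Ptn knockdown on Tap2 and on Erap1 differed between E0771-LG and E0771 cells, by a test of the difference itself over the 12 cell samples (limma, 3 samples a group). For Tap2 the difference was 0.89 (log2, adjusted p = 0.00836), with every E0771-LG knockdown sample above its controls and overlapping groups in E0771. For Erap1 it was −0.98 (adjusted p = 0.000537), with every E0771-LG knockdown sample below its controls and overlapping groups in E0771. The cause of either difference was not tested.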

How the results depend on the processing

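The calls of Tap2 and Erap1 in E0771-LG cells, and those of their differences between the lines, kept their direction and their side of the threshold under all alternatives run. The count of genes past the threshold stayed at 0 in both tumor models under all alternatives, and was 2 to 3 for the difference between the lines when 1 library was left out.

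The count in E0771 cells (1) was 0 with no filter, 0 with the plain eBayes step and 0 in 1 fit of all 24 samples, and 0 to 2 without 1 library. The count in E0771-LG cells (5) was 3 with no filter, 3 with the plain eBayes step, 3 in 1 fit of all 24 samples, 3 with quantile normalization and 3 with voom, and 2 to 5 without 1 library. The number of genes lower in every E0771-LG than in every E0771 control sample (5) was 5 to 9 without 1 library. The count in E0771-LG cells covers the 9 genes other than H2-K1. The other counts cover all 10 genes, among them H2-K1, whose level led to the choice of genes. The cause was not tested. With 1 library left out, a group held 2 samples.

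With quantile normalization, changes that lay near 0 switched sign: H2-K1 (0.05), H2-D1 (0.05) and Psmb8 (−0.03) in 4T1 tumors, H2-D1 (−0.03) in E0771 cells, and Psmb9 (−0.17) and Nlrc5 (−0.08) in E0771-LG cells. The difference between the lines switched sign for Psmb9 (−0.27) and for Tap1 (−0.06), and for Tap1 also with median-of-ratios scaling (−0.03) and voom (−0.01). The cause was not tested.

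Leaving out 1 library also switched signs, with these lowest and highest changes. In 4T1 tumors they were −0.18 to 0.09 for H2-K1, −0.28 to 0.04 for H2-D1, −0.04 to 0.23 for Tap2, −0.15 to 0.02 for Tapbp, −0.21 to 0.21 for Psmb8 and −0.27 to 0.22 for Psmb9. In MMTV-PyMT tumors they were −0.26 to 0.08 for Tap2. In E0771 cells they were −0.10 to 0.21 for H2-K1, −0.08 to 0.21 for H2-D1, −0.06 to 0.14 for Tap2, −0.28 to 0.41 for Psmb9 and −0.04 to 0.19 for Nlrc5. For B2m (0.00 to 0.33) and Erap1 (0.00 to 0.10) in E0771 cells, the lowest change was 0.00 at the printed digits. In E0771-LG cells they were −0.51 to 0.14 for Tap1, −0.03 to 0.54 for Psmb9 and −0.25 to 0.39 for Nlrc5. For the difference between the lines they were −0.23 to 0.42 for Tap1, −0.20 to 0.53 for Psmb9 and −0.33 to 0.31 for Nlrc5. The cause was not tested.

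The replicate numbers do not pair samples by any statement of the authors. With a replicate block the counts were 0 for 4T1, 0 for MMTV-PyMT, 1 in E0771 cells, 5 in E0771-LG cells and 3 for the difference between the lines.

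Chosen after seeing the data were the levels of 3 and 2 log2 CPM for the count of genes near 0 in E0771-LG control cells (1 and 4, against 1), limits of 10, 20 and 50 reads for that count (1, 2 and 6), leaving out each control library for the levels between the lines, and leaving out MMTV-PyMT 3B10 tumor 3, where 9 genes in place of 2 had separate groups. Voom could not be run for 4T1 tumors, which have no reads. The level of Psmb9, E0771-LG minus E0771 control, was −2.15 with quantile normalization, and that of Erap1 was 0.85 with median-of-ratios scaling.

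Depth limits what low counts can show. In E0771-LG control cells H2-K1 had 0 to 3 reads per sample, so its fitted change depends on the added constant (3.81 with a constant of 1) and the ratio of reads was given. Among the other 9 genes, Psmb9 had the fewest reads there, 40 to 91. With 3 samples a group, the smallest p that exchanging labels can give is 0.1. The depth of the 4T1 samples is unknown.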
